A study of Rattus norvegicus with 18 samples.

Results

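The 9 genes described here respond to interferons and were followed through the first hours after transection of the rat sciatic nerve. They were the transcription factors Irf1, Irf7, Irf8, Irf9 and Stat2, the antiviral effectors Mx1, Mx2 and Isg15, and the chemokine Cxcl10. They were given as a list of symbols, and a probe was taken where the scanner files name it after a member or where its accession maps to one. All 9 of 9 were found, each on 1 probe, out of 41012 probes that were not controls and 35205 gene names. The probe of Isg15 bore the older name G1p2 and was matched by its accession. The probe of Irf8 bore only a transcript identifier and was matched through the gene ID in its description, so that its name rests on RefSeq's rat table. The samples were proximal sciatic nerve, the stump still joined to the spinal cord, from adult male Sprague-Dawley rats after a segment of the nerve had been resected under anaesthesia. They were taken 0, 0.5, 1, 3, 6 or 9 h after the resection, with 3 arrays per time-point and 18 in all, and by the labels the groups differed in time alone, though not in how the arrays were run, as given below. The labels name no separate uncut or sham-operated group and do not say whether the 0 h nerve was taken before or right after the cut, and the 0 h arrays served as the control. Whether each array stands for a single rat or for pooled rats is not given in the labels, so the P-values measure the spread between these arrays, which may be technical.

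Interferons are secreted proteins that cells release when they sense foreign or misplaced nucleic acids. Type I interferons bind the receptor of Ifnar1 and Ifnar2, and the kinases Jak1 and Tyk2 then activate Stat2, which enters a complex with Irf9 that binds the interferon-stimulated response element (ISRE) of antiviral genes such as Mx1, Mx2 and Isg15. Type II interferon, Ifng, acts by way of gamma-activated sites (GAS) in genes such as Irf1, and both Irf1 and Cxcl10 can also be switched on by NF-kappaB in inflamed tissue. Irf7 amplifies the type I response, and Irf8 is best known for its role in the development of monocytes, macrophages and dendritic cells. The question was whether such a response begins within 9 h of transection.

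RNA was measured on Agilent arrays of 1 colour, where a spot is the brighter the more transcript its probe of 60 bases has bound. Values below are log2 normalized signals, that is the log2 processed signal of a probe minus the 75th percentile of its array, and changes are differences of these, so that 1 unit is 2-fold. Levels of different probes were not set against each other. All 9 probes were well above background on all 18 arrays and passed the filter on dim probes, which left 32113 probes under 27141 gene names. Arrays of the same time-point correlated at 0.976 to 0.992 over all probes. All 12 markers of Schwann cells, the glia of the nerve, were measured. Their summed log2 level ran from 9.76 to 10.01 over the 0 h arrays and from 9.43 to 9.62 over the 9 h arrays. That of 6 fibroblast markers ran from 10.34 to 10.44 and from 9.82 to 9.9. The summed log2 level of 11 skeletal muscle markers ran from 7.13 to 10.95 over the 0 h arrays and from 1.64 to 7.50 over the 9 h arrays, and that of 11 neutrophil markers from 0.81 to 1.23 and from 4.85 to 5.13. In whole tissue, fewer cells of a type and less RNA per cell cannot be told apart. Scanning took 3 days, of which the first held the 0 and 0.5 h arrays, the second the 1, 3 and 6 h arrays and 9 h replicates 1 and 2, and the third 9 h replicate 3. From 1 h on, scan day and time cannot be told apart in a comparison with 0 h, whereas comparisons with 1 h stay within the second day save for that last array. The arrays lay on 9 slides, none of which held more than 1 time-point.

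The probes of the 3 antiviral effectors are shown because their values moved together from array to array. On the rn4 build the probe of Mx1 lies at chr11:37439631-37439690, that of Mx2 is spread over chr11:37568920-37570815, and that of Isg15 lies at chr5:173034674-173034733.
Mx1: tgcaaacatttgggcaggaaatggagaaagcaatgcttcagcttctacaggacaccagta
Mx2: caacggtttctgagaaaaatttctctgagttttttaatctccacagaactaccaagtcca
Isg15: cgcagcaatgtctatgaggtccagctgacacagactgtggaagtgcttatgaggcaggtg

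The bases before the start of Irf1 and of Cxcl10 are shown because these members were called earliest. The sequences are RefSeq's, on the GRCr8 build and the plus strand, and cover 250 bases up to the start. Capitals mark matches on either strand to 3 patterns. They are ISRE (GAAA, any 2 bases, GAAA), GAS (TTCNNNGAA) and a loose kappaB pattern (GGG, any 5 bases, CC). The stretch of Irf1 lies at chr10:38417685-38417934 and that of Cxcl10 at chr14:15988816-15989065.
Irf1: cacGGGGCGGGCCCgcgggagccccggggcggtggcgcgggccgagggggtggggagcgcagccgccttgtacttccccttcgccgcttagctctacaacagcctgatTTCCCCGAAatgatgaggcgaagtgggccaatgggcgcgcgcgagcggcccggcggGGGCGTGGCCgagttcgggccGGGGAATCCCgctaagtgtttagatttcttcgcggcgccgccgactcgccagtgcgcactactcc
Cxcl10: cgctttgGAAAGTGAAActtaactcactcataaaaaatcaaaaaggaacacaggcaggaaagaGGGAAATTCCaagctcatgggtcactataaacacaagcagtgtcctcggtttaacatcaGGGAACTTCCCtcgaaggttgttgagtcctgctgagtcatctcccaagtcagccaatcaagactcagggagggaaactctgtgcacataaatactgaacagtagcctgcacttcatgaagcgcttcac
Irf1 held the GAS match TTCCCCGAA, whose first base lies 142 bases before the start, and the kappaB match GGGGAATCCC at 65, beside a match at 86 and a pair that overlap at 247 and 246. Cxcl10 held the ISRE match GAAAGTGAAA at 243 and kappaB matches at 187 (GGGAAATTCC) and 128 (GGGAACTTCC), the latter overlapping another at 127. The promoter table held 7 of the 9 members, without Mx2 and Isg15. Over windows from 250 bases before to 50 after the start, ISRE was matched in 2 of the 7 (Irf7 and Cxcl10) and in 3.92% of 33469 promoters, GAS in 3 (Irf1, Irf8 and Irf9) and in 8.87%, and kappaB in 6 and in 47.3%. These are matches of letters and not measured binding sites.

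With all 18 arrays in the fit, 3 of the 9 genes were called against 0 h at some time-point. Of all gene names 32.7% were called at 9 h alone. Irf1 rose at 1 and 3 h, Cxcl10 at 3 h and Irf8 at 9 h, while Irf7, Irf9, Stat2, Mx1, Mx2 and Isg15 were not called against 0 h at any time-point. A gene was called if limma's moderated test gave it a raw P-value under 0.01 that also stayed under 0.05 after Benjamini-Hochberg adjustment over all probes. By this rule 0 of 9 members were called at 0.5 h, against 6.62% of all gene names, with 0 members at a raw P-value under 0.05. At 1 h 1 of 9 was called, against 6.10% of gene names, and it was higher, as were 3.89% of gene names. At 3 h 2 of 9 were called, both higher, where 14.8% of gene names were called and 7.70% were called higher. At 6 h 0 of 9 were called, against 26.5%, with 1 member at a raw P-value under 0.05. At 9 h 1 of 9 was called, and higher, where 32.7% of gene names were called and 17.0% were called higher. The F-test over the 6 time-points called 1 of 9, Irf1, against 36.3% of gene names. The median change of the members was -0.01, -0.10, 0.20, 0.23 and 0.35 at the 5 later time-points in turn, and the median over all probes 0.00 to 0.02.

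**Figure D1:**
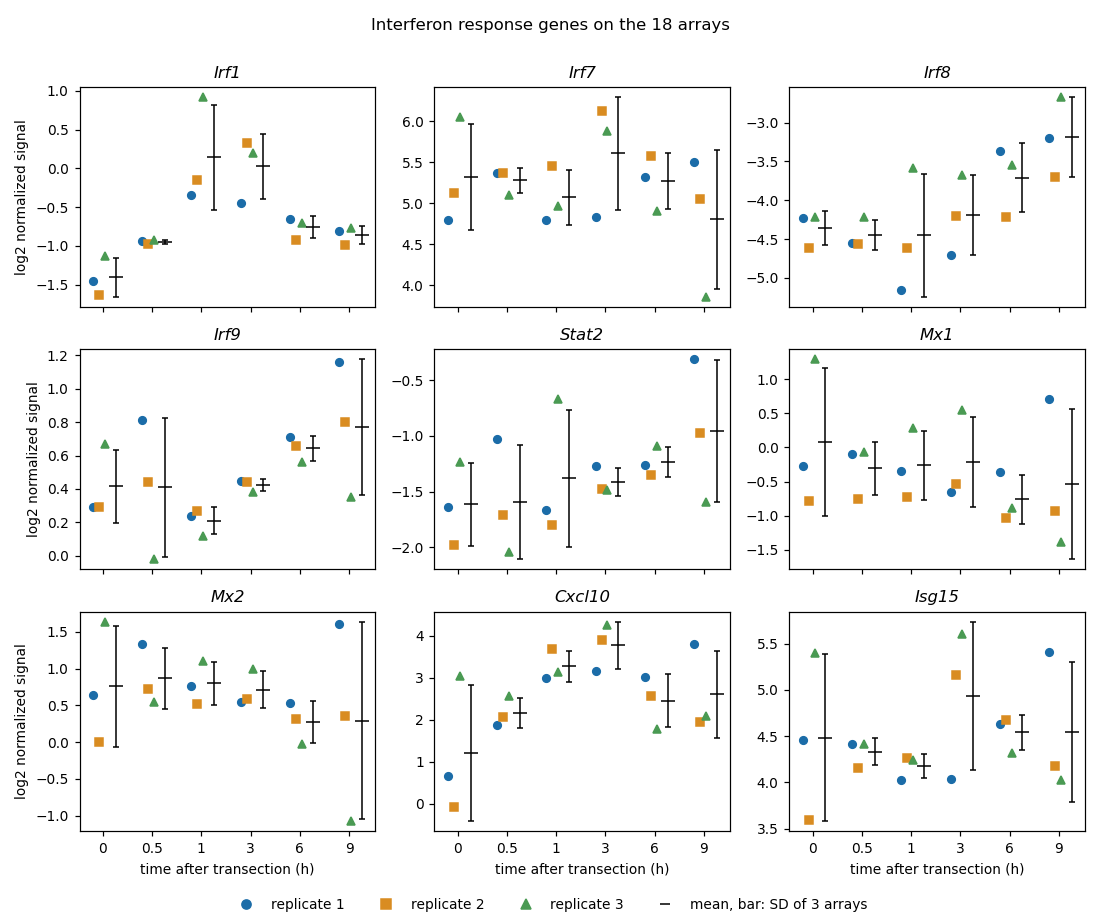
Log2 normalized signal of each of the 9 genes (1 panel each, with its own vertical axis) on the 3 arrays of each time-point after transection, with the mean and SD of the 3 arrays beside them. All 15 later arrays lie above the 3 arrays of 0 h for Irf1, while 0 h replicate 3 and 9 h replicate 1 stand high for Mx1, Mx2 and Isg15.

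**Figure D2:**
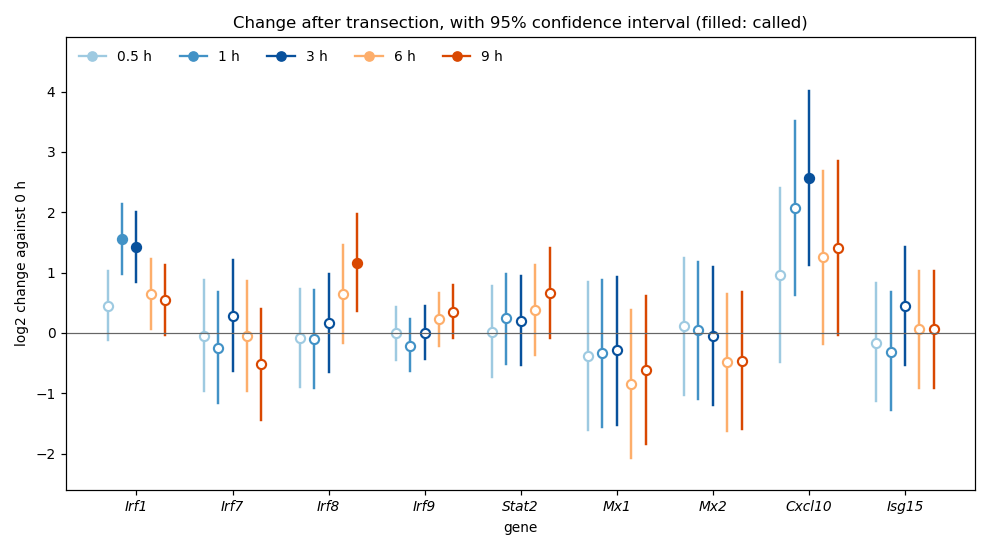
Log2 change of each gene against 0 h at the 5 later time-points, with the 95% confidence interval from limma's fit of all 18 arrays. Filled points are called, which holds for Irf1 at 1 and 3 h, Cxcl10 at 3 h and Irf8 at 9 h.

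Irf1, a transcription factor of the type II response, had the clearest course. Its log2 normalized signal was -1.45, -1.63 and -1.13 on the 0 h arrays, -0.94, -0.98 and -0.93 on the 0.5 h arrays and -0.34, -0.15 and 0.92 on the 1 h arrays. It was then -0.45, 0.33 and 0.20 on the 3 h arrays, -0.65, -0.92 and -0.70 on the 6 h arrays and -0.81, -0.99 and -0.77 on the 9 h arrays. All 15 later arrays were above all 3 arrays of 0 h, which held for 5.59% of the probes tested. Irf1 rose by 1.55 at 1 h (SE 0.27, 95% confidence interval 0.97 to 2.13, adjusted P-value 0.00456), a 2.92-fold change. It was higher by 1.43 at 3 h (interval 0.85 to 2.01, adjusted P-value 0.00339), or 2.69-fold. The change of 0.45 at 0.5 h (interval -0.12 to 1.03, adjusted P-value 0.351) was not called. Nor were those of 0.64 at 6 h (interval 0.07 to 1.22, adjusted P-value 0.0928) and 0.55 at 9 h (interval -0.03 to 1.12, adjusted P-value 0.129). By its means the order was 1 h (0.15 ± 0.68, SD, n = 3), 3 h (0.03 ± 0.41), 6 h (-0.76 ± 0.14), 9 h (-0.86 ± 0.12), 0.5 h (-0.95 ± 0.02) and 0 h (-1.40 ± 0.25). In this order the arrays of 1 and 3 h overlapped, as did those of 6 and 9 h and those of 9 and 0.5 h.

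The rise of Irf1 was followed by a fall. Against 1 h, Irf1 was lower at 6 h by a log2 change of -0.90 (SE 0.27, adjusted P-value 0.0242) and was the only member called there (1 of 9, where 25.7% of gene names were called and 13.2% were called lower). Against 1 h again, it was lower at 9 h by a log2 change of -1.0 (SE 0.27, adjusted P-value 0.0133), where 2 of 9 members were called, against 26.8% of gene names. Between 1 and 3 h 0 of 9 were called, against 11.0%, with 0 at a raw P-value under 0.05, and Irf1 differed by -0.12 (interval -0.70 to 0.46).

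The size of this fall leans on 1 h replicate 3, whose value of 0.92 was the highest of Irf1. Without that array Irf1 still rose by 1.16 at 1 h against 0 h (adjusted P-value 0.00806). Against 1 h its change was then -0.52 at 6 h (adjusted P-value 0.0805), no longer called, and -0.62 at 9 h (0.0362). Without the same array Irf1 was also called against 0 h at 6 h (0.64, adjusted P-value 0.0161) and at 9 h (0.55, adjusted P-value 0.0285). On the second scan day alone the changes against 1 h were -0.90 at 6 h and -1.05 at 9 h, with adjusted P-values of 0.0734 and 0.0807. The arrays highest in Irf1 among those of 1 and 3 h, 1 h replicate 3 and 3 h replicate 2, were also highest there in 11 of 11 muscle markers. With the muscle level as a covariate Irf1 was higher by 1.75 at 1 h and by 1.6 at 3 h, and was called at both.

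Over the 18 arrays, the genes whose signal followed Irf1 most closely were Asxl1 (Pearson's r = 0.94), Arid5a (r = 0.89) and Tifa (r = 0.88), where the arrays share their time-points and scan days. Among the members, Irf1 went most with Cxcl10 (r = 0.73).

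Cxcl10, a chemokine that draws T cells and NK cells through the receptor Cxcr3, was the other early gene. Its log2 normalized signal was 0.67, -0.08 and 3.04 on the 0 h arrays, 1.88, 2.07 and 2.57 on the 0.5 h arrays and 2.99, 3.69 and 3.15 on the 1 h arrays. It was then 3.16, 3.90 and 4.27 on the 3 h arrays, 3.02, 2.57 and 1.78 on the 6 h arrays and 3.81, 1.94 and 2.09 on the 9 h arrays. Replicate 3 of 0 h was above all arrays of 0.5 and 6 h, and the 3 h arrays alone all stood above it, which held for 20.8% of probes at 3 h. By its means Cxcl10 was highest at 3 h, then 1, 9, 6, 0.5 and 0 h, and the arrays of each neighbouring pair overlapped. Cxcl10 rose by 2.56 at 3 h (SE 0.67, interval 1.12 to 4.01, adjusted P-value 0.0221), a 5.91-fold change. The change of 2.07 at 1 h (interval 0.63 to 3.51) was not called, with an adjusted P-value of 0.0891, and those of 0.96, 1.25 and 1.4 at 0.5, 6 and 9 h were not called either.

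Single arrays decided these calls. The rise of Cxcl10 at 3 h was no longer called without 0 h replicate 1 (2.29, adjusted P-value 0.0721), 0 h replicate 2 (1.92, 0.103), 3 h replicate 2 (2.50, 0.0738) or 3 h replicate 3 (2.32, 0.0737). The same held under normexp background correction (2.26, 0.0764) and with only the 6 arrays compared (2.56, 0.0987). Without 0 h replicate 3, by contrast, the changes of Cxcl10 were 2.98, 3.48, 2.16 and 2.32 at 1, 3, 6 and 9 h, all called (adjusted P-values 0.0109, 0.00152, 0.0125 and 0.00731).

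Cxcl11, a further ligand of Cxcr3 that is not among the 9 genes, also peaked at 3 h. It was well above background on 1 of 3 arrays of 0 h and of 0.5 h and on all 12 later ones. Its signal was -6.71, -6.43 and -4.46 on the 0 h arrays, with replicate 3 again the highest, and -1.48, -0.52 and -0.54 on the 3 h arrays, which did not overlap. Its fitted changes, which rest on 2 arrays of 0 h that were not well above background, were 2.64, 5.03 and 3.49 at 1, 3 and 6 h, all called (adjusted P-values 0.0377, 0.000276 and 0.00205), while 9 h, with 1.95, missed the call (adjusted P-value 0.0372, with a raw P-value above the limit). Cxcl9, the remaining ligand of that receptor, changed by 0.51 at 3 h and was not called (F-test, adjusted P-value 0.216).

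Stat2 and Irf9, which carry the type I response to its target genes, were not called against 0 h. Stat2 ranged over -1.98 to -1.23 on the 0 h arrays and -1.59 to -0.31 on the 9 h arrays, and its largest change was 0.66 at 9 h (interval -0.08 to 1.41, adjusted P-value 0.153). Irf9 ranged over 0.29 to 0.67 on the 0 h arrays and 0.35 to 1.16 on the 9 h arrays, with a change of 0.35 (interval -0.08 to 0.79, adjusted P-value 0.192). For both genes the 9 h arrays overlapped those of 0 h, and the highest of all 18 arrays was 9 h replicate 1. With limma's array weights both were called at 9 h, Stat2 by 1.03 and Irf9 by 0.56 (adjusted P-values 0.00878 and 0.0152). Against 1 h, Irf9 was not called at 9 h (0.56, SE 0.20, adjusted P-value 0.0549), from 0.24, 0.27 and 0.12 on the 1 h arrays and 1.16, 0.80 and 0.35 on the 9 h arrays. On the second scan day alone this difference was 0.77 and was called (adjusted P-value 0.00446).

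Irf7, itself induced by type I interferon, had values of 4.80, 5.12 and 6.05 on the 0 h arrays, 4.83, 6.12 and 5.88 on the 3 h arrays and 5.50, 5.05 and 3.86 on the 9 h arrays. Its changes against 0 h lay between -0.52 at 9 h (interval -1.44 to 0.39) and 0.28 at 3 h (interval -0.63 to 1.20), and at every time-point its arrays overlapped those of 0 h.

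The antiviral effectors were called at no time-point. Mx1, a GTPase that blocks viral replication, had values of -0.27, -0.79 and 1.29 on the 0 h arrays, -0.10, -0.75 and -0.07 on the 0.5 h arrays and -0.35, -0.72 and 0.28 on the 1 h arrays. It then had -0.65, -0.54 and 0.55 on the 3 h arrays, -0.36, -1.03 and -0.89 on the 6 h arrays and 0.71, -0.93 and -1.38 on the 9 h arrays. The highest of its 18 values was on an array of 0 h. Its paralogue Mx2 had 0.64, 0.00 and 1.63 on the 0 h arrays, 0.54, 0.59 and 1.00 on the 3 h arrays and 1.61, 0.35 and -1.08 on the 9 h arrays. Isg15, a ubiquitin-like protein that is joined to other proteins, had 4.46, 3.59 and 5.40 on the 0 h arrays, 4.04, 5.16 and 5.60 on the 3 h arrays and 5.41, 4.18 and 4.03 on the 9 h arrays. In each of these genes the groups overlapped those of 0 h. The changes against 0 h were -0.84 to -0.29 for Mx1, -0.49 to 0.11 for Mx2 and -0.31 to 0.45 for Isg15, with F-test adjusted P-values of 0.788, 0.799 and 0.718. At 3 h the intervals ran from -1.52 to 0.93 for Mx1, from -1.19 to 1.09 for Mx2 and from -0.53 to 1.42 for Isg15, so that a 2-fold change in at least 1 direction lay within each.

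Within a time-point, single arrays differed in most of these genes at once. All 9 members were highest on replicate 3 of the 0 h arrays. There Cxcl10 was higher than the mean of the other 0 h arrays by 2.74 (6.69-fold), Mx1 by 1.82 (3.54-fold), Isg15 by 1.38, Mx2 by 1.31 and Irf7 by 1.09. The others were higher by 0.57 (Stat2), 0.41 (Irf1), 0.38 (Irf9) and 0.21 (Irf8). Thus 5 of 9 members were at least 2-fold higher on this array, against 0.848% of 27124 gene names, and Cxcl10 ranked 15 and Mx1 57 among all gene names. Among the 9 h arrays, 7 of 9 members were highest on replicate 1, with a median deviation of 0.70 from the mean of the time-point. Among the 3 h arrays the median deviation was -0.47 on replicate 1 and 0.29 on replicate 3. These values are a description, since the arrays were singled out after their values had been seen.

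Antiviral genes outside the 9 shared this pattern. Of 35 such genes tested, 33 were highest on 0 h replicate 3, 29 on 0.5 h replicate 1, 25 on 3 h replicate 3 and 32 on 9 h replicate 1. Of all 27141 gene names, 9244, 8031, 12720 and 3948 were highest on these arrays in turn. No array stood out so far at the other times, where 5, 18 and 12 of the 35 were highest on the 1 h arrays and 16, 16 and 3 on the 6 h arrays. Rsad2, an antiviral enzyme, had values of 2.26, 1.74 and 3.39 on the 0 h arrays and 3.22, 1.91 and 2.07 on the 9 h arrays. Usp18, which removes Isg15 from proteins, had 1.35, 0.61 and 2.50 on the 0 h arrays and 2.31, 1.21 and 0.63 on the 9 h arrays. Both were thus highest on the same arrays as Mx2. After the mean of each time-point was taken off, the correlation over the 18 arrays was 0.86 between Mx1 and Mx2, 0.89 between Cxcl10 and Isg15, 0.85 between Mx1 and Isg15, and -0.03 between Irf1 and Irf9. Over the 18 arrays Rsad2 (r = 0.93) and Oas1a (r = 0.87) were among the genes most like Isg15, and Oas1i (r = 0.92) and Ifi44 (r = 0.89) among those most like Mx2, looked up after the pattern had been seen.

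**Figure D3:**
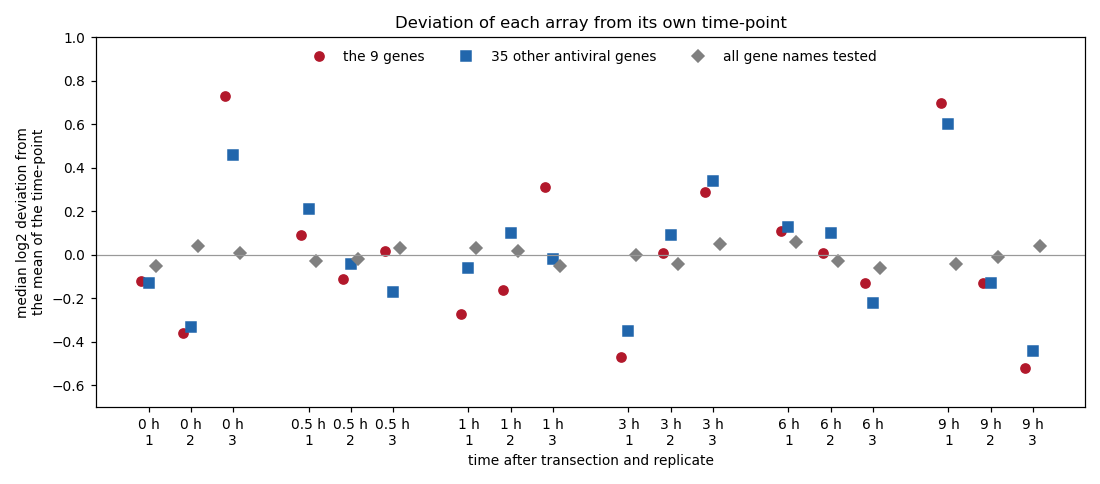
Median log2 deviation of each of the 18 arrays from the mean of its own time-point, for the 9 genes (circles), for 35 other antiviral genes (squares) and for all gene names tested (diamonds). The median of the 9 genes is 0.73 on 0 h replicate 3 and 0.70 on 9 h replicate 1, where that of all gene names is 0.01 and -0.04.

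Markers of other cells were counted on the same arrays. On 0 h replicate 3, the highest of the 3 arrays was reached by 8 of 12 Schwann cell markers, 4 of 6 fibroblast markers, 1 of 8 endothelial markers, 6 of 13 macrophage and monocyte markers, 2 of 11 neutrophil markers, 4 of 10 markers of T and NK cells, 0 of 11 muscle markers and 0 of 4 erythroid markers. On 9 h replicate 1 these counts were 1 of 12, 2 of 6, 1 of 8, 1 of 13, 0 of 11, 0 of 10, 10 of 11 and 0 of 4. On 3 h replicate 3 they were 0 of 12, 2 of 6, 5 of 8, 11 of 13, 10 of 11, 7 of 10, 0 of 11 and 0 of 4. On 0.5 h replicate 1 they were 4 of 12, 2 of 6, 3 of 8, 3 of 13, 2 of 11, 0 of 10, 11 of 11 and 2 of 4. Most markers of immune cells were thus highest on 3 h replicate 3, but not on 0 h replicate 3, 0.5 h replicate 1 or 9 h replicate 1. The part of these cells in the pattern was not tested, and differences between rats and between the handling of arrays cannot be told apart here.

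Irf8 rose late. Its values were -4.23, -4.61 and -4.22 on the 0 h arrays, -4.55, -4.56 and -4.22 on the 0.5 h arrays and -5.15, -4.61 and -3.59 on the 1 h arrays. They were then -4.70, -4.20 and -3.67 on the 3 h arrays, -3.37, -4.21 and -3.54 on the 6 h arrays and -3.20, -3.70 and -2.67 on the 9 h arrays. All 3 arrays of 9 h stood above all 3 of 0 h, as they did for 28.6% of probes. Irf8 was higher at 9 h by 1.16 (SE 0.38, interval 0.36 to 1.97, adjusted P-value 0.028), or 2.24-fold. Against 1 h it was higher at 9 h by 1.26 (SE 0.38, adjusted P-value 0.0227), with arrays that overlapped, and it was 1 of 9 members called higher there beside 1 called lower, where 12.5% of gene names were called higher and 14.4% lower.

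The call of Irf8 depended on the processing. Its probe was dim, with 25.6% of tested probes dimmer. At 9 h the probes of the dimmest sixth moved by a median of 0.47, those of the second sixth, which holds Irf8, by 0.19 and those of the brightest sixth by -0.15. The call at 9 h against 0 h was lost with quantile normalization (0.91), in the deposited matrix (0.87), with normexp background correction (0.70, adjusted P-value 0.614) and on leaving out any of 10 arrays, where the change stayed between 0.90 (without 9 h replicate 3) and 1.23. Against 1 h the call at 9 h held under 25 of 33 alternatives. The change there was -0.09 under normexp and, on the second scan day alone, 1.0 (adjusted P-value 0.187).

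Among markers of cells in which Irf8 acts, 4 of 13 macrophage and monocyte markers were higher at 9 h, Cd14 by 2.15, Lyz2 by 1.59 and Cd163 by 1.55 among them, and Adgre1 was lower with a log2 change of -0.91, where 17.0% of all gene names were called higher. The remaining call was 1 of 2 probes of Csf1r, whose brighter probe (0.23) was not called. Itgam (1.11), Cd68 (0.59), Aif1 (0.02), Mrc1 (0.06), C1qc (0.00), Fcgr3a (-0.07), C1qb (-0.23) and C1qa (-0.38) were not called, and the median over the 13 was 0.06. The summed level of these 13 markers ran from 7.64 to 7.87 over the 0 h arrays and from 7.93 to 8.10 over the 9 h arrays. This shift was not particular to 9 h. The level ran from 7.88 to 8.03 at 0.5 h, 7.85 to 8.02 at 1 h, 7.97 to 8.14 at 3 h and 7.84 to 8.04 at 6 h. Siglech, a marker of plasmacytoid dendritic cells, was not well above background on any array of 0 h. It passed the filter only through its 6 and 9 h arrays, and was at least 10.3-fold higher at 9 h. The other markers of these cells did not follow it, as Tcf4 was lower (-0.99, adjusted P-value 6.58e-05) and Il3ra (0.00) and Runx2 (0.46) were not called. Their part in the change of Irf8 was not tested.

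Of the interferons themselves little could be measured. Of 13 in the list 6 had a probe by name and 2 could be tested, Ifna4 and Ifna16l1, neither of which was called (F-test adjusted P-values 0.329 and 0.263). The type I interferon genes resemble each other closely, so a probe may bind several of them. Ifnb1, a type I interferon that many cell types make, was well above background on 5 of 18 arrays, none of them of 0 or 1 h. Ifng, type II interferon, was not well above background on any of the 18 arrays, and Ifna5 and Ifnk were so on 2 and 3. Ifnb1, Ifng, Ifna5 and Ifnk did not pass the filter on dim probes, so that their changes were not tested. The processed signal of Ifnb1 ran from 3.58 to 164.0 over the 18 arrays.

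Of 7 interferon receptors and kinases tested, 3, 3 and 4 were higher at 3, 6 and 9 h, where 7.70% of all gene names were called higher at 3 h and 17.0% at 9 h, and 26.5% were called in either direction at 6 h. Jak2, a kinase of the type II receptor among others, was 0.61, 0.82 and 0.74 on the 0 h arrays and 1.89, 1.91 and 2.14 on the 9 h arrays, a change of 1.26 (SE 0.11, adjusted P-value 3.88e-06). Ifngr2 was higher by 0.50 at 9 h (adjusted P-value 0.0054) and so was Ifnar1 (0.0146), though only 1 of its 2 probes was called. The change of 0.25 in Ifngr1 was not called. Ifnlr1, the receptor of type III interferons, was among those counted at 3, 6 and 9 h, though it passed the filter only through its 9 h arrays. It was not well above background on any array of 0 h and was at least 2.13-fold, 2.20-fold and 1.31-fold higher at 3, 6 and 9 h. The kinase Jak1 was lower at both 0.5 and 1 h, with a log2 change of -0.43 (adjusted P-values 0.042 and 0.0403), though only 1 of its 2 probes was called. Without 0 h replicate 3, 0 of the 7 were called at either time. Of 11 STAT and IRF factors, members included, 3 were higher at both 3 and 9 h (27.3% of the list), and 1 was higher and 1 lower at 6 h, the latter Irf3 (-0.45, adjusted P-value 0.00551). Stat3, which serves the interleukin 6 family, was higher by 1.45 at 9 h (adjusted P-value 2.23e-06) and Irf5 by 0.82 (0.0145).

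The wider antiviral list was counted in the same way. Of 38 tested, with Mx1, Mx2 and Isg15 among them, 0 were called at 0.5 and 1 h, 4 each were higher at 3 and 6 h, and 3 were higher and 1 lower at 9 h. Called were thus 4 of 38 at each of 3, 6 and 9 h, where 14.8%, 26.5% and 32.7% of all gene names were called, and 0 at 0.5 and 1 h, where 6.62% and 6.10% were. The median change was -0.16, -0.23, 0.20, -0.07 and -0.14 at these times in turn. Samhd1, an enzyme that breaks down deoxynucleotides, was higher by 1.22, 2.23 and 1.90 at 3, 6 and 9 h (adjusted P-values 0.0216, 0.000235 and 0.000555). The ubiquitin ligase Trim21 was higher by 1.51 at 3 h (0.00444), and the membrane protein Ifitm1 by 1.18 at 9 h (0.000374). Ifit3, an antiviral RNA-binding protein, was higher by 2.29 at 3 h (0.0219), from -1.82, -3.71 and -0.92 on the 0 h arrays, which differed widely. The remaining call at 3 h was 1 of 2 probes of Dtx3l. Ifi27 was lower at 9 h with a log2 change of -0.76 (0.0168). Under normexp background correction 0 of 38 were called at 3 h. Without 9 h replicate 1, 3 were higher and 7 lower at 9 h, and without 0 h replicate 3, 5, 6 and 4 were higher at 3, 6 and 9 h and 0 were lower.

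Of 21 genes of the type II response and antigen presentation, 1, 3 and 4 were higher at 1, 3 and 6 h, and 2 were higher and 2 lower at 9 h. Called were 3, 4 and 4 of the 21 at 3, 6 and 9 h, against 14.8%, 26.5% and 32.7% of all gene names. Beside Cxcl10 and Cxcl11, the GTPase Igtp was higher by 1.23 at 3 h and 1.35 at 6 h (adjusted P-values 0.0238 and 0.00808) and Fcgr1a, a receptor for antibodies on myeloid cells, by 1.47 at 9 h (0.000292). Of 13 sensors of nucleic acids and their adaptors 0 were called at 0.5 and 1 h, and 2 were higher and 3 lower at 3 h. At 6 h 2 were higher and 2 lower, and at 9 h 3 were higher and 3 lower. Called were thus 38.5% at 3 h, 30.8% at 6 h and 46.2% at 9 h. Ifih1, a sensor of double-stranded RNA, was higher by 1.26 at 3 h (0.0328) and Myd88, an adaptor of Toll-like receptors, by 1.15 at 9 h (0.00103), while Tlr3 was lower at 9 h with a log2 change of -1.05 (0.000167).

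Of 7 brakes on this signalling, 1, 2 and 3 were higher at 0.5, 1 and 3 h. At 6 h 2 were higher and 1 lower, and at 9 h 4 were higher and 1 lower. Socs3, which inhibits Jak kinases and is also induced by interleukin 6, was -4.43, -4.55 and -4.46 on the 0 h arrays and -1.01, -1.58 and -1.59 on the 0.5 h arrays. It was higher by 3.09, 3.92 and 3.51 at 0.5, 1 and 9 h (adjusted P-values 0.000119, 1.02e-05 and 4.24e-06). Socs1, which interferons induce, was higher by 1.85 at 3 h (0.00207) and 1.05 at 9 h (0.0233). Ptpn2, a phosphatase that acts on Jak1, was higher by 1.30 at 3 h and 1.62 at 9 h, whereas Usp18 was not called at any time (F-test adjusted P-value 0.989). Of 12 early genes of the NF-kappaB response tested, 7, 8, 10, 10 and 11 were higher at 0.5, 1, 3, 6 and 9 h. Of all gene names 6.62%, 6.10%, 14.8%, 26.5% and 32.7% were called at these times in either direction. Tnf, counted at 3, 6 and 9 h, passed the filter only through its 9 h arrays. The lists were chosen with earlier results of these data known. The difference between these lists was not tested.

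**Figure D4:**
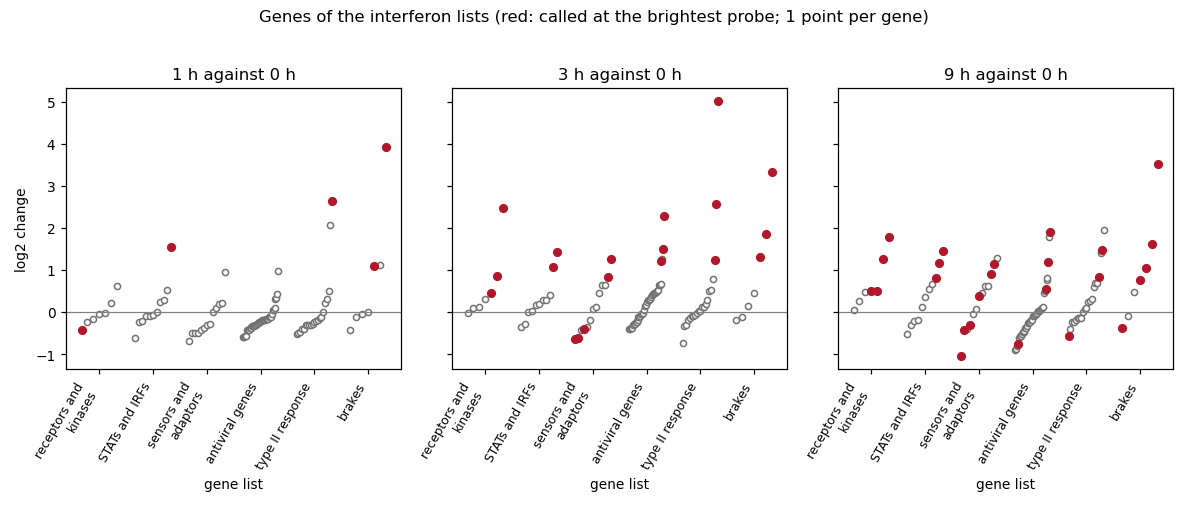
Log2 change against 0 h at 1, 3 and 9 h of each tested gene of 6 lists of the interferon pathway, 1 point per gene at its brightest tested probe, ordered by change within a list, with called genes in red. The highest points are Socs3 at 1 h (3.92) and Cxcl11 at 3 h (5.03, from a 0 h group with 1 of 3 arrays well above background), and of the 38 antiviral genes 0 are called at 1 h.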

How the data were processed

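Per the labels, total RNA was amplified, labelled with Cy3 and hybridised to Agilent arrays of 1 colour. The authors deposited scanner output (Feature Extraction 10.5.1.1 per the file headers), whose processed signal is a linear intensity with background subtracted and trends removed. The log2 matrix that the authors deposited beside it has the same distribution on every array and served as an alternative. Here control and outlier spots were dropped, log2 processed signals were taken relative to the 75th percentile of each array, and spots of a probe were averaged. Probes had to be well above background on all 3 arrays of some time-point. RefSeq's rat annotation (GRCr8) named 16336 of 41012 probes by accession, 3732 by symbol, 1145 by gene ID and 975 by synonym, and the others kept the file's name. Probe coordinates are those of the files on rn4. A gene with several probes was called if any was, with values from its brightest.

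All 18 arrays entered 1 limma fit (prior degrees of freedom 1.9), with eBayes contrasts, an F-test and Benjamini-Hochberg adjustment over 32113 probes. The fit was tested on simulated data. A bound for a dim group used, on each array, the higher of the probe's own signal and the lowest signal of any probe well above background. The genes, lists, patterns of letters and contrasts with 1 h were chosen with earlier results of these data known. All members are named and, of each list, up to 3 called genes with the largest change per contrast, interferons, their receptors, and the 3 genes nearest to a member called in the F-test. Cxcl9, Usp18, Rsad2, Oas1a, Oas1i, Ifi44, Dtx3l, Adgre1 and the markers that were not called were named after their values were seen. List counts include genes whose own values are not given here. Alternatives covered background correction, normalization, filters, blocks, weights, thresholds and leaving out each array, and the muscle level as a covariate was added after the values were seen. R 4.3.3 with limma 3.58.1 and Python 3.11.15 with pandas 2.3.3 were used.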

Additional observations from a re-analysis of the deposited data

How the results depend on the processing

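With 3 arrays per time-point the counts of called members were small and moved with the processing, and the cause was not tested. Irf1 was called at 1 and 3 h against 0 h under all 31 alternatives, with changes of 1.16 to 1.79 and of 1.28 to 1.66. Under normexp background correction 1 member was called at 3 h and 0 at 9 h against 0 h, and 0 at 6 h and 1 at 9 h against 1 h, and Irf8 turned to -0.45 at 6 h and -0.09 at 9 h against 1 h. Quantile normalization and the deposited matrix each called 0 at 9 h against 0 h. Array weights called 2 in the F-test, 3 at 9 h against 0 h and 4 at 9 h against 1 h. With only the 6 arrays compared, 1 was called at 3 h and 1 at 6 h against 0 h, and 0 at 9 h against 1 h. The second scan day alone called 1 at 9 h against 1 h (Irf9), and a change of at least 2-fold left 0 at 6 h against 1 h. With the muscle level as a covariate, chosen after seeing the data, 2 were called in the F-test. Leaving out each array gave 1 to 2 in the F-test, 1 to 2 at 1 h, 1 to 2 at 3 h, 0 to 1 at 6 h and 0 to 2 at 9 h against 0 h, and 0 to 1 at 6 h and 1 to 2 at 9 h against 1 h.

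With the replicate number as a block, 2 members were called in the F-test (Irf1 and Irf8) in place of 1, and no other count of called members changed. The labels tie the numbers to no animal or batch, and same-numbered deviations correlated at -0.261 to 0.565 over 45 pairs, with 22 over 0.1. Of the 72 changes of members, 54 were called under no setting, and 31 of these, all of 0.50 or less in size, changed sign under at least 1 alternative. Signal over background limits what can be said of the interferons.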
